A study of Homo sapiens with 9 samples.

Results

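A2ko is 1 of 3 groups of CRISPR-edited CAL27 cells, and its expression was compared directly with that of the other edited groups, A8ko and C9ko. CAL27 is an established line of human tongue carcinoma cells with squamous features. Members were chosen by the sample titles, which gave 6 of the 9 samples of the series: 2 of A2ko, 2 of A8ko and 2 of C9ko, all titled knockout. The other 3 were of unedited CAL27, called Control. The pair of A2ko samples held identical values for all 78894 gene identifiers, as did the pair of A8ko samples, so each pair was counted as 1 library. That left 4 of 7 distinct libraries: 1 of A2ko, 1 of A8ko and 2 of C9ko. All cells were grown in the same serum-containing medium without treatment, and polyA RNA was sequenced after dUTP library construction, for which 2 ug of RNA was taken. The study is about an enhancer of squamous carcinomas of the head and neck, but which sequence was edited is not given in the labels used here, nor whether a group is a clone or a pool. The level of the edited target therefore could not be checked in any library. Nothing in the labels says that libraries of a group came from separate cultures, so their spread may be technical.

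An enhancer is a stretch of DNA that raises transcription of a gene at a distance when transcription factors bind it. In squamous epithelium, basal cells divide and express KRT5 and KRT14, while cells that leave the basal layer switch to other keratins and to proteins of the cornified envelope. AP-1 dimers of FOS and JUN proteins and NF-kB dimers act downstream of growth factor and cytokine receptors, and both are known regulators of matrix proteases, cytokines and keratinocyte differentiation genes.

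Values were TPM, a share of the library corrected for transcript length, so sequencing depth is unknown and no counting interval can be given. Of the 78894 identifiers, 17100 reached 1 TPM in at least 2 of the 7 distinct libraries, and these are the kept genes. A2ko had 16716 genes at 1 TPM or more, against 15556 to 15954 in A8ko and C9ko. Mitochondrially encoded transcripts took 25.2% of the TPM in A2ko beside 20.6% in the A8ko library and 20.2% and 17.9% in C9ko. Their share in Control was 23.1% to 26.9%. The libraries were checked for epithelial markers, which cannot tell CAL27 from other epithelial lines. Of these markers 12 of 12 were kept. They summed to 7530 TPM in A2ko beside 9141 in the A8ko library and 11823 and 11608 in C9ko. Control libraries had 16234 to 17381 TPM. KRT5 was the most abundant of them in every library. Markers of other cells were few: 7 of 12 fibroblast, 9 of 10 endothelial and 8 of 12 leukocyte markers stayed under 1 TPM in every library. COL3A1, KDR, EMCN, CD3D and MS4A1 were listed at 0 throughout. The fibroblast list, mostly FBLN1, summed to 63.5 to 99.2 TPM in the edited libraries and 64.2 to 64.6 in Control. The endothelial list, mostly CDH5, summed to 9.45 to 31.2 TPM against 3.91 to 5.37 in Control. The leukocyte list, mostly CD14 and CD68, summed to 61.9 to 84.7 TPM against 43.3 to 51.6 in Control. The part of such markers in the differences was not tested.

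On the log2(TPM + 1) scale, A2ko lay above all 3 other edited libraries for 6306 genes, 36.9% of the kept ones, and below all 3 for 5910 genes, 34.6%. For 487 genes (2.85%) A2ko was higher by a gap of at least 1 log2 unit, the gap being the distance from A2ko to the nearest of the other 3 libraries. For 272 genes (1.59%) it was lower by that gap. With A8ko held against A2ko and C9ko in the same way, 36 genes (0.211%) were above and 135 (0.789%) below. For both C9ko libraries against A2ko and A8ko the counts were 103 (0.602%) and 24 (0.14%). Over genes, the log2 difference had an SD of 0.635 to 0.658 between A2ko and the other edited libraries, 0.434 and 0.489 between A8ko and C9ko, and 0.349 within C9ko. The counts are descriptive, since A2ko and A8ko have no distinct replicate, and a group with 1 library has no measured spread. Leaving out a library can only raise these counts, because the gap is taken to the nearest library. The count of lower genes was 553 without A8ko, and 298 or 337 without either C9ko library.

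At the threshold itself, PEX11G was just counted as higher, with a gap of 1.002, and BSPRY just not, with 0.9998. PLP2 was just counted as lower, at -1.01, and SLC22A4 just not, at -0.998. Weakly expressed genes supplied most of the higher genes: 310 of 487 had a mean under 5 TPM, against 74 of the 272 lower genes. Of the 6030 kept genes with such a mean, 5.14% were higher and 1.23% lower, beside 2.85% and 1.59% of all kept genes. Among genes with a mean of at least 5 TPM, 177 were higher and 198 lower. By type, 388 of the higher and 208 of the lower genes were protein coding. These were 3.13% and 1.68% of the 12394 kept protein-coding genes, near the shares over all kept genes.

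Control libraries were used to place these genes, and they are shared by every difference from Control given here. A2ko was at least 1 log2 unit above Control, and outside its range, for 606 genes (3.54% of the kept ones) and below it for 261 (1.53%). The 3 other edited libraries were all above Control by that much for 163 genes (0.953%) and all below for 171 (1%). Of the 487 higher genes, 253 had only A2ko above Control by at least 1, 58 had only the other 3 below it, 22 had both, and 154 neither. Of the 272 lower genes, 68 had only A2ko below Control, 81 had only the other 3 above it, 3 had both, and 120 neither.

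**Figure D1:**
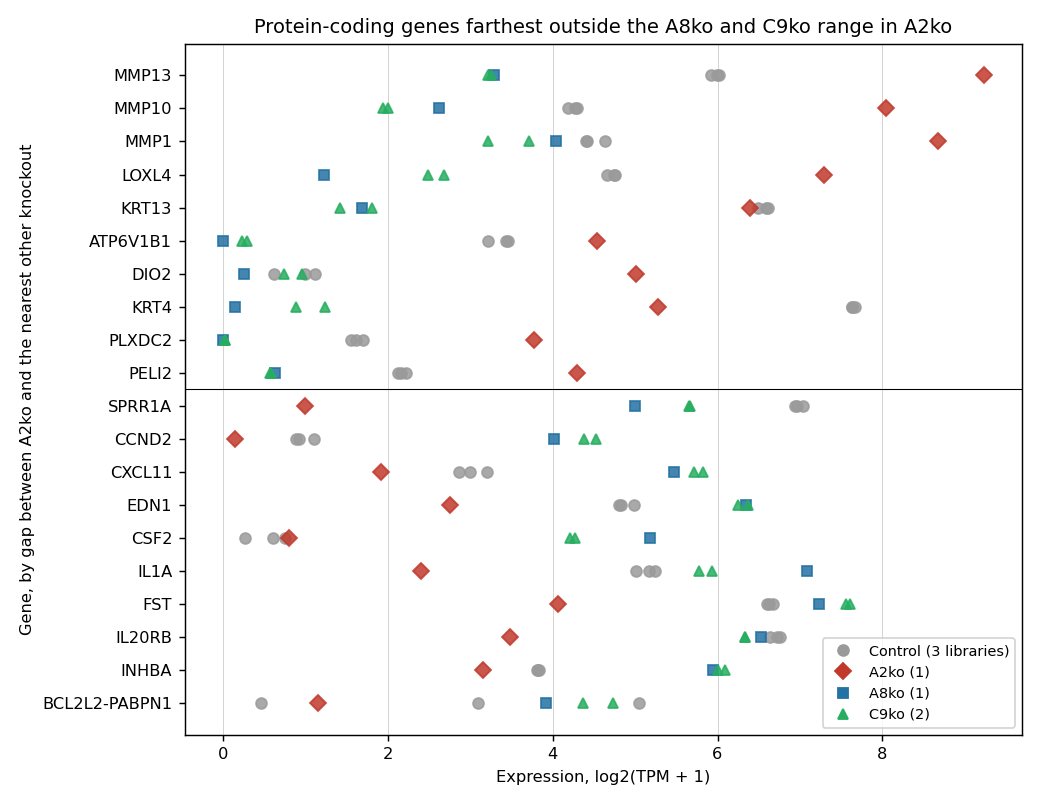
Expression on the log2(TPM + 1) scale (x axis) of the 20 protein-coding genes with the largest gaps (y axis), 10 higher in A2ko above the line and 10 lower below it. Each point is 1 distinct library: red diamonds A2ko, blue squares A8ko, green triangles C9ko, grey circles Control. In each row the red point lies apart from the blue and green ones, while the grey points lie between them for MMP13 and EDN1 and close to A2ko for KRT13.

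The protein-coding genes farthest above the other edited lines were MMP13, MMP10 and MMP1. They encode collagenases and a stromelysin, zinc-dependent enzymes that cleave collagen and other matrix proteins. The sequences of promoters that the following results refer to are shown first, because members of these groups are textbook targets of AP-1 or NF-kB. They cover the 120 bases before the transcription start in RefSeq on GRCh38.p14, 5′ to 3′ on the gene's strand. Capitals mark each match to the AP-1 motif TGANTCA, which is its own reverse complement. They also mark, on either strand, an NF-kB motif that reads GGGA, any base, TT, any base, CC. Only promoters with a match are shown, but not all of those. LOXL4, higher in A2ko, held an NF-kB match 210 bases before the start, and MMP7, also higher, an AP-1 match 67 bases before it. IL1A and PLAUR, both lower, held an AP-1 match 12 and 186 bases before the start. The promoters of CSF2, CCL20, EDN1, TIMP3, MMP14, CDC20, CCNA2, HMMR and KIF20A held neither motif in the 250 bases before the start. That of CXCL8 held an AP-1 match but no match to the NF-kB motif as written here. Sites that depart from either motif by a base were not counted, so a promoter without a match may still hold such a site. MMP10 (chr11:102780629-102780748, minus strand) was higher in A2ko. SPRR1A (chr1:152983961-152984080, plus strand) and SPRR1B (chr1:153031083-153031202, plus strand), which encode cornified envelope proteins, were lower. So were IL6 (chr7:22727080-22727199, plus strand), CXCL1 (chr4:73869273-73869392, plus strand) and TNFAIP3 (chr6:137867139-137867258, plus strand), which are cytokine and feedback genes of NF-kB.
MMP10: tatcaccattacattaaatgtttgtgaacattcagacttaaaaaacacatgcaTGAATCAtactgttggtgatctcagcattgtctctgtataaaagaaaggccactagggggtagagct
SPRR1A: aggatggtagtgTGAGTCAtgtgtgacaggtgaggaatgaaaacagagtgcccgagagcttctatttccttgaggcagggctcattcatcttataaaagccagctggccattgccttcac
SPRR1B: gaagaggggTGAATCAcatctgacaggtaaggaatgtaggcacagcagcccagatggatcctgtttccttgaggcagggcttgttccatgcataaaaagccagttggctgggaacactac
IL6: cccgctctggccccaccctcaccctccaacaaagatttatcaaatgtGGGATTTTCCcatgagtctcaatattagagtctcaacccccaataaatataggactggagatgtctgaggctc
CXCL1: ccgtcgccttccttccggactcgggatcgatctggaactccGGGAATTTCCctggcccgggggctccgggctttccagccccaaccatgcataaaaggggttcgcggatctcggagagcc
TNFAIP3: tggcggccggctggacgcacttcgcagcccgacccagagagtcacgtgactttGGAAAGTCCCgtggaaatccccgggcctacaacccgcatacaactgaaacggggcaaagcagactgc

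The AP-1 match of MMP10 begins 67 bases before the start, that of SPRR1A 108 and that of SPRR1B 111, and SPRR1B has another match, TGAGTCA, 141 bases before its start. Over the 250 bases before the start, TGANTCA was found in 1801 of 27305 promoters of the RefSeq table (6.60%) and in 468 of the 10977 that belong to kept genes (4.26%). It was found in 15 of 304 promoters of the higher genes (4.93%) and in 24 of 176 of the lower genes (13.6%), so the share was larger among the lower genes. The NF-kB motif was found in 348 of all promoters (1.27%) and 155 of the 10977 of kept genes (1.41%). It was in 4 of 304 of the higher genes (1.32%) and 7 of 176 of the lower genes (3.98%). By list, TGANTCA was in 9 of 14 cornified envelope promoters and 5 of 19 of the matrix protease list, and the NF-kB motif in 9 of 33 of the NF-kB list. Some lists had none: neither motif was in the 33 mitosis promoters or the 22 of the epithelial to mesenchymal transition list. A match describes letters, not binding, and the promoters of MMP13, MMP1, MMP12 and MMP3 were not used.

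Among the matrix proteases and their inhibitors, 29 of 34 listed genes were kept, and A2ko was above the range for 11 and below it for 16. These were 37.9% and 55.2%, beside 36.9% and 34.6% of all kept genes, so the share above was near the background. With a gap of at least 1 A2ko was higher for 5 (MMP13, MMP10, MMP1, MMP12 and TIMP3) and lower for 4 (ADAM8, PLAUR, ADAMTS1 and ADAM12). Over all kept genes these shares were 2.85% and 1.59%. The same background applies to every list below. MMP13, collagenase 3 (ENSG00000137745, chromosome 11, 102942995 to 102955734, minus strand), was at 602 TPM in A2ko beside 8.803 in A8ko and 8.54 and 8.301 in C9ko, against 61.99 ± 2.01 TPM in Control (SD, n = 3). A2ko was thus 68.4 times the next edited library, with a gap of 5.94, and Control lay between A2ko and the others. MMP10, stromelysin 2 (ENSG00000166670, chromosome 11, 102770503 to 102780628, minus strand), was at 263 TPM in A2ko beside 5.13 in A8ko and 3.01 and 2.84 in C9ko, against 18.1 ± 0.705 TPM in Control (SD, n = 3). Its gap was 5.43, and Control again lay between. MMP1, interstitial collagenase (ENSG00000196611, chromosome 11, 102789920 to 102798160, minus strand), was at 408 TPM in A2ko beside 15.5 in A8ko and 8.295 and 12.2 in C9ko, against 21.5 ± 2.12 TPM in Control (SD, n = 3), a gap of 4.63. For MMP1 the Control libraries were nearer to A8ko than to A2ko. MMP12, the macrophage elastase of the same cluster on chromosome 11, was at 12.4 TPM in A2ko beside 0.148 in A8ko and 0.3799 and 0.438 in C9ko, against 1.81 ± 0.266 TPM in Control (SD, n = 3), and had a gap of 3.22.

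MMP7 and MMP3, of the same cluster, were also highest in A2ko among the edited libraries. MMP7, matrilysin, was at 5.83 TPM in A2ko beside 0.374 in A8ko and 2.45 and 1.64 in C9ko, with a gap of 0.99 just under the threshold. MMP3 was at 2.36 TPM in A2ko beside 0.168 in A8ko and 0.0841 and 0.205 in C9ko and was not counted, since the filter on low values left it out. Proteases encoded elsewhere differed. MMP14, the membrane-bound protease, was lower in A2ko at 82.3 TPM in A2ko beside 128 in A8ko and 124 and 132 in C9ko, and MMP2 was under 2.1 TPM in each edited library. TIMP3, an inhibitor that binds the matrix, was higher in A2ko, at 15.7 TPM in A2ko beside 0.631 in A8ko and 1.18 and 0.677 in C9ko, against 3.03 ± 0.472 TPM in Control (SD, n = 3). Of the lower proteases, ADAM8, a membrane protease, was at 7.09 TPM in A2ko beside 42.5 in A8ko and 38.8 and 40.5 in C9ko. ADAMTS1 was at 0.944 TPM in A2ko beside 7.102 in A8ko and 6.65 and 6.68 in C9ko. PLAUR, the receptor of the urokinase plasminogen activator, was at 11.6 TPM in A2ko beside 50.3 in A8ko and 64.3 and 69.2 in C9ko, against 18.6 ± 1.22 TPM in Control (SD, n = 3). For PLAUR and ADAM8 the A2ko value was nearest to Control and the other 3 libraries were higher. PLAU, the activator itself, was lower by a gap of -0.47 only, at 307 TPM in A2ko beside 496 in A8ko and 454 and 425 in C9ko.

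The list's median difference was -0.31 (A2ko minus the mean of A8ko and the C9ko mean), beside 0.01 over all kept genes, so the collagenases went against the middle of their own list. LOXL4, a lysyl oxidase that cross-links collagen (ENSG00000138131, chromosome 10, 98247690 to 98268250, minus strand), was also among the 10 highest gaps, at 156 TPM in A2ko beside 1.35 in A8ko and 4.62 and 5.41 in C9ko, against 25.4 ± 0.882 TPM in Control (SD, n = 3), a gap of 4.62. Other genes were named by size alone. ATP6V1B1, a subunit of the vacuolar proton pump, was at 22.2 TPM in A2ko beside 0 in A8ko and 0.1700 and 0.221 in C9ko. DIO2, the thyroxine-activating deiodinase, was at 31.2 TPM in A2ko beside 0.198 in A8ko and 0.949 and 0.668 in C9ko. PLXDC2, a plexin-domain receptor, was at 12.7 TPM in A2ko beside 0 in A8ko and 0.01400 and 0.0145 in C9ko. PELI2, a ubiquitin ligase of the interleukin-1 receptor pathway, was at 18.7 TPM in A2ko beside 0.551 in A8ko and 0.499 and 0.491 in C9ko. In each of these 5 genes A2ko was the highest of the 7 libraries.

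The cytokine genes controlled by NF-kB differed in the opposite direction. Of 45 listed NF-kB cytokine and feedback genes 41 were kept, A2ko lay below the other edited libraries for 32 and above them for 3, and 15 were lower by at least 1 and 0 higher. The median difference was -0.90. In bulk RNA, fewer cells of a type and less RNA per cell cannot be told apart, here as in the other groups.

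CSF2, which encodes the growth factor GM-CSF (ENSG00000164400, chromosome 5, 132073790 to 132076170, plus strand), was at 0.7402 TPM in A2ko beside 35.3 in A8ko and 17.6 and 18.3 in C9ko, against 0.471 ± 0.244 TPM in Control (SD, n = 3). For CSF2, A2ko was just above the highest Control library and the other edited lines were far higher, with a gap of -3.42. IL1A, interleukin-1 alpha (ENSG00000115008, chromosome 2, 112773915 to 112784590, minus strand), was at 4.297 TPM in A2ko beside 135 in A8ko and 53.9 and 59.99 in C9ko, against 34.3 ± 2.698 TPM in Control (SD, n = 3). A2ko was the lowest of all 7 libraries for IL1A, with a gap of -3.37. IL6, a cytokine that signals through STAT3 and whose promoter is shown above, was at 17.6 TPM in A2ko beside 130.5 in A8ko and 109.7 and 122 in C9ko, against 13.02 ± 0.978 TPM in Control (SD, n = 3). Its gap was -2.57. A2ko was close to Control for IL6 and the other 3 libraries were far above both.

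CCL20, a chemokine for dendritic cells and lymphocytes, was at 8.95 TPM in A2ko beside 52.8 in A8ko and 37.2 and 41.4 in C9ko, with a gap of -1.94. CXCL8, a neutrophil chemokine, was at 20.3 TPM in A2ko beside 62.3 in A8ko and 66.7 and 71.8 in C9ko, a gap of -1.57. CXCL1, another of that kind, was at 54.8 TPM in A2ko beside 143 in A8ko and 169.6 and 189 in C9ko, a gap of -1.37. TNF was at 2.95 TPM in A2ko beside 16.4 in A8ko and 11.3 and 12.2 in C9ko, a gap of -1.64. LIF, an IL-6 family cytokine, was at 14.3 TPM in A2ko beside 44.6 in A8ko and 41.8 and 45.1 in C9ko. For each of these genes A2ko lay below all 3 others. TNFAIP3, which encodes the inhibitory enzyme A20, was at 32.6 TPM in A2ko beside 124 in A8ko and 114 and 115 in C9ko, against 34.6 ± 1.48 TPM in Control (SD, n = 3). The acute-phase gene SAA1 was at 112 TPM in A2ko beside 286 in A8ko and 429 and 522 in C9ko. The remaining members with a gap of at least 1 were CSF1, TNIP1, NFKBIZ, IRAK2 and S100A8.

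The members above the range were IL11 (2.99 TPM in A2ko beside 1.37 in A8ko and 1.402 and 1.85 in C9ko), CCL5 and TNFAIP2, none by as much as 1. Other members did not separate A2ko: CCL2, a monocyte chemokine, was at 298 TPM in A2ko beside 37.4 in A8ko and 1432 and 1466 in C9ko, so that A2ko lay between A8ko and C9ko. IL1B was at 178 TPM in A2ko beside 293 in A8ko and 176 and 195 in C9ko. ICAM1, the leukocyte adhesion molecule, was below the range by -0.24 only, at 70.1 TPM in A2ko beside 82.8 in A8ko and 103 and 101 in C9ko, all 4 well above 23.3 ± 0.557 TPM in Control (SD, n = 3). Cytokine receptors and vasoactive peptides outside the list were also among the 10 largest gaps. IL20RB, a receptor chain for IL-20 and IL-24, was at 10.2 TPM in A2ko beside 91.5 in A8ko and 79.6 and 79.6 in C9ko. EDN1, endothelin 1, was at 5.75 TPM in A2ko beside 80.2 in A8ko and 75.3 and 81.5 in C9ko, against 28.4 ± 2.13 TPM in Control (SD, n = 3). A2ko was below Control and the others above Control for EDN1. IL20RB overlaps NCK1 on the same strand in the annotation, so reads may be shared.

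Among AP-1 and immediate early genes, which growth factor signalling through ERK induces, 25 of 25 were kept. A2ko was below the range for 15 (60%, beside 34.6% of all kept genes) and above it for 6 (24%, beside 36.9%). By at least 1, 5 were lower (DUSP4, FOSL1, ATF3, ETV4 and JUN) and 1 was higher (FOS), and the median difference was -0.55. FOS and FOSL1, both partners of JUN in AP-1, differed in opposite directions. FOS was at 244 TPM in A2ko beside 59.1 in A8ko and 25.6 and 26.3 in C9ko, against 145 ± 3.96 TPM in Control (SD, n = 3), a gap of 2.03. FOSL1 was at 38.9 TPM in A2ko beside 256 in A8ko and 182 and 183 in C9ko, against 74.6 ± 2.61 TPM in Control (SD, n = 3), a gap of -2.201. A2ko therefore had the highest FOS and the lowest FOSL1 of the 7 libraries. JUN was at 26.4 TPM in A2ko beside 64.9 in A8ko and 56.3 and 55.7 in C9ko, with A2ko near 25.1 ± 2.45 TPM in Control (SD, n = 3). JUNB was above the range at 302 TPM in A2ko beside 255 in A8ko and 189 and 203 in C9ko. FOSB was at 13.7 TPM in A2ko beside 8.91 in A8ko and 4.74 and 4.36 in C9ko.

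The ERK phosphatase gene DUSP4 was at 2.82 TPM in A2ko beside 21.6 in A8ko and 26.00 and 28.4 in C9ko, a gap of -2.56, and its relatives DUSP5 and DUSP6 were lower by -0.83 and -0.18. DUSP1 went the other way, at 30.2 TPM in A2ko beside 15.7 in A8ko and 9.32 and 9.71 in C9ko. The ERK-responsive factor ETV4 was at 9.95 TPM in A2ko beside 31.96 in A8ko and 30.1 and 32.96 in C9ko. The stress factor ATF3 was at 10.8 TPM in A2ko beside 43.7 in A8ko and 41.2 and 47.6 in C9ko. EGR1 did not separate A2ko, since A8ko was the highest and C9ko the lowest at 223 TPM in A2ko beside 408 in A8ko and 138 and 136 in C9ko.

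Of 16 genes of the EGFR family and its ligands 12 were kept, 5 were below the range and 4 above, and 2 ligands were lower by at least 1. The shares below and above, 41.7% and 33.3%, were near the 34.6% and 36.9% of all kept genes. NRG1, a ligand of ERBB3, was at 12.1 TPM in A2ko beside 45.4 in A8ko and 33.5 and 31.9 in C9ko, against 28.1 ± 1.204 TPM in Control (SD, n = 3). HBEGF, a ligand of EGFR, was at 10.2 TPM in A2ko beside 26.3 in A8ko and 24.1 and 24.4 in C9ko, against 9.85 ± 0.711 TPM in Control (SD, n = 3). The receptor EGFR was at 374 TPM in A2ko beside 242 in A8ko and 219 and 364 in C9ko, a range in C9ko that nearly reaches A2ko.

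**Figure D2:**
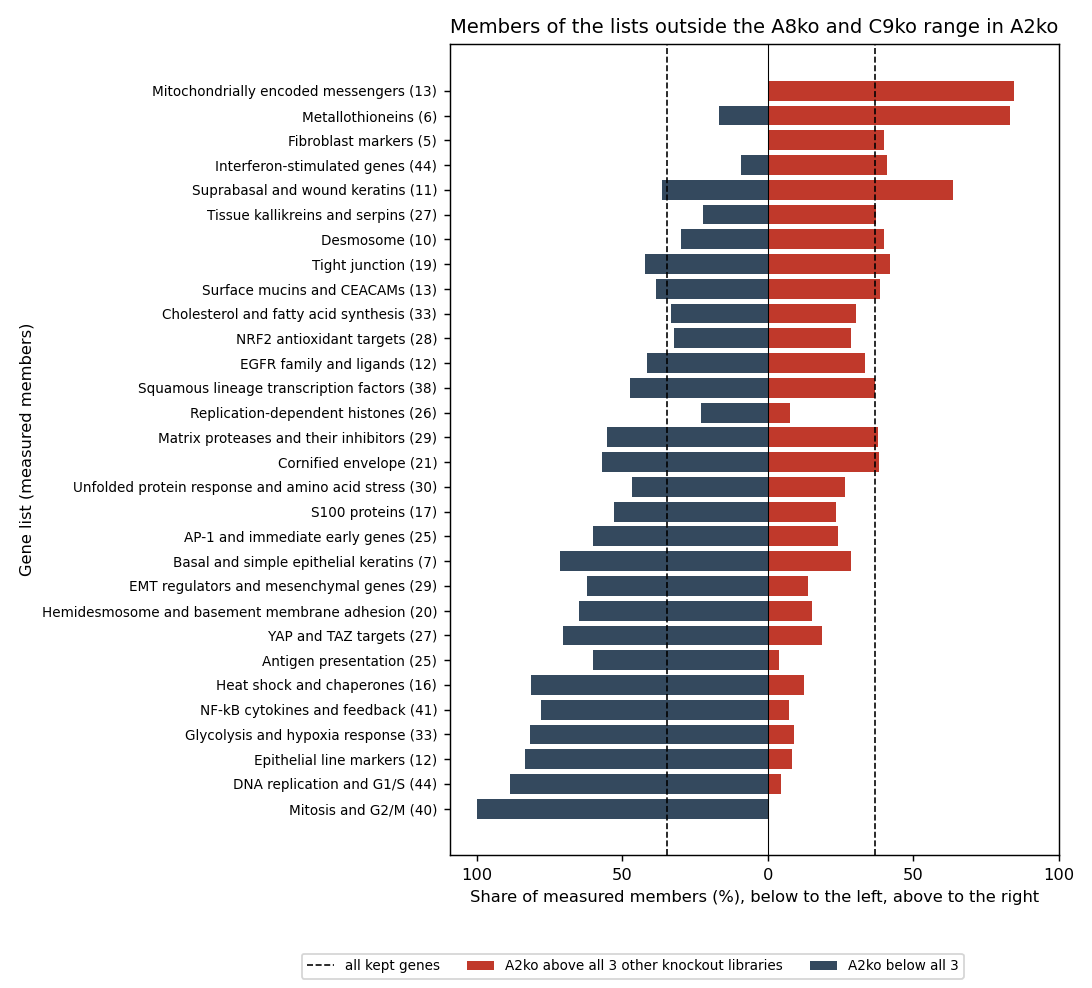
Share of the measured members of the gene lists (y axis, number of kept members in brackets) for which A2ko lay above all 3 A8ko and C9ko libraries (red, to the right, %) or below all 3 (dark blue, to the left, %). Dashed lines give the shares over all kept genes, 36.9% above and 34.6% below, and the mitosis list reaches 100% below.

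Genes of cell division were lower in A2ko as a group, each by a modest amount. Of the mitosis and G2/M genes 40 of 40 were kept and 40 lay below all 3 other edited libraries, beside 34.6% of all kept genes. The median difference was -0.84, and 5 had a gap of at least 1: CDC20, HMMR, KIF20A, PTTG1 and CCNA2. CDC20, the activator of the anaphase-promoting complex, was at 199.7 TPM in A2ko beside 483 in A8ko and 457 and 481 in C9ko, against 374 ± 24.96 TPM in Control (SD, n = 3), a gap of -1.19. HMMR, a spindle protein, was at 14.8 TPM in A2ko beside 36.2 in A8ko and 34.6 and 37.6 in C9ko. PTTG1, securin, was at 111 TPM in A2ko beside 230.1 in A8ko and 234 and 243 in C9ko. CCNA2, cyclin A2, was at 23.2 TPM in A2ko beside 48.1 in A8ko and 51.5 and 55.01 in C9ko. A2ko was below Control and the others above it for each of these 4. MKI67, the proliferation marker, had a smaller gap of -0.83, at 26.96 TPM in A2ko beside 48.7 in A8ko and 50.97 and 50.5 in C9ko, against 40.1 ± 1.45 TPM in Control (SD, n = 3). KIF20A, a mitotic kinesin with a gap of -1.05, overlaps BRD8 and CDC23 on the opposite strand, and the labels do not say if counting kept strands apart.

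Of the DNA replication and G1/S genes 44 of 44 were kept, 39 lay below the range, 2 above it and 0 had a gap of 1. The median difference was -0.42. RRM2, the small subunit of ribonucleotide reductase, was at 100.1 TPM in A2ko beside 200.3 in A8ko and 172 and 189 in C9ko, against 116 ± 6.88 TPM in Control (SD, n = 3). TYMS, thymidylate synthase, was at 117 TPM in A2ko beside 218 in A8ko and 210.3 and 189 in C9ko. The helicase subunit MCM4 was at 85.1 TPM in A2ko beside 153 in A8ko and 135 and 131 in C9ko. The clamp protein PCNA was at 248 TPM in A2ko beside 304 in A8ko and 484 and 534 in C9ko. For RRM2, MCM4 and PCNA the A2ko value was the lowest of the edited lines, and that of RRM2 was closer to Control than the others were. LIG1 and E2F2 were the members above the range, and GINS4, POLE2 and CCNE2 were inside it. CCND2, cyclin D2, which is outside this list (ENSG00000118971, chromosome 12, 4273772 to 4305350, plus strand), was among the largest gaps of all. It was at 0.111 TPM in A2ko beside 15.2 in A8ko and 19.8 and 22.1 in C9ko, against 0.964 ± 0.161 TPM in Control (SD, n = 3), a gap of -3.87. A2ko and Control were both low for CCND2 and the other 3 libraries were far above them.

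**Figure D3:**
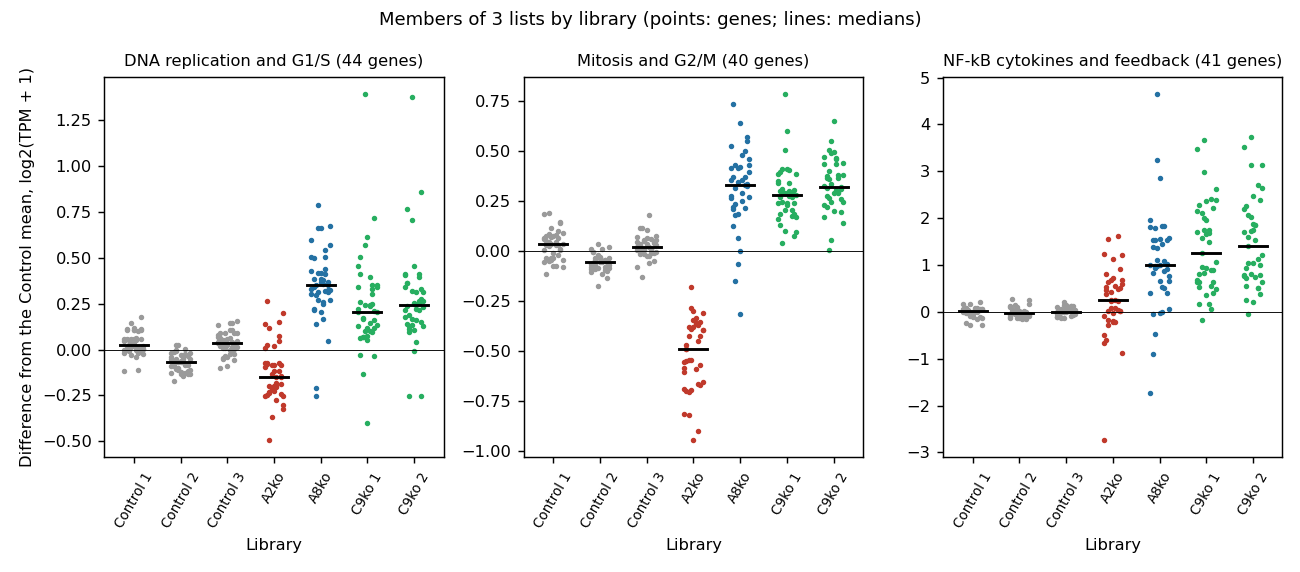
Members of 3 gene lists in each distinct library (x axis), as the log2(TPM + 1) difference from the Control mean (y axis, a scale of its own in each panel); each point is a gene and each line a median. The A2ko points of the mitosis list all lie below 0 and nearly all A8ko and C9ko points above it, and the NF-kB median of A2ko lies below those of A8ko and C9ko.

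Histone genes placed A2ko between the other groups, but their transcripts mostly lack a polyA tail and polyA RNA was sequenced. Of 36 replication-dependent histones 26 were kept, 6 below and 2 above the range, with a median difference of -0.01. Their median difference from Control was 0.07 in A2ko beside -0.47 in the A8ko library and 0.45 and 0.52 in C9ko. The difference of A2ko averages these opposite groups, and without A8ko it was -0.46 relative to all genes. BBC3, a pro-apoptotic gene, was lower by at least 1, at 3.36 TPM in A2ko beside 20.4 in A8ko and 17.2 and 18.7 in C9ko. CDKN1A, the p21 inhibitor of cyclin-dependent kinases, was above the range by 0.42, at 54.8 TPM in A2ko beside 35.4 in A8ko and 36.00 and 40.7 in C9ko, against 31.9 ± 0.975 TPM in Control (SD, n = 3). FDXR, a mitochondrial reductase, was higher by at least 1, at 44.8 TPM in A2ko beside 19.1 in A8ko and 21.8 and 19.8 in C9ko.

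Keratins and envelope genes split by member. Of the suprabasal and wound keratins 11 of 17 were kept, 7 above and 4 below the range, with KRT13, KRT4 and KRT1 higher by at least 1 and KRT6B and KRT80 lower. KRT13, the suprabasal keratin of oral mucosa (ENSG00000171401, chromosome 17, 41500981 to 41505705, minus strand), was at 83.1 TPM in A2ko beside 2.23 in A8ko and 1.68 and 2.497 in C9ko, against 93.6 ± 4.395 TPM in Control (SD, n = 3), a gap of 4.59. A2ko was near Control and the other 3 were far lower. KRT4, the partner of KRT13 (ENSG00000170477, chromosome 12, 52806549 to 52814551, minus strand), was at 37.7 TPM in A2ko beside 0.106 in A8ko and 1.37 and 0.857 in C9ko, against 199 ± 2.82 TPM in Control (SD, n = 3), a gap of 4.03. All 4 edited libraries were below Control for KRT4 and A2ko the least. KRT1, of the epidermal suprabasal layers, was at 3.08 TPM in A2ko beside 0 in A8ko and 0.459 and 0.464 in C9ko, against 18.5 ± 1.51 TPM in Control (SD, n = 3). KRT16, a wound keratin, was above the range at 61.3 TPM in A2ko beside 19.3 in A8ko and 37.3 and 37.7 in C9ko. KRT17, its relative, was also above at 1749 TPM in A2ko beside 489 in A8ko and 1139 and 1049 in C9ko. KRT6B was at 6.19 TPM in A2ko beside 16.7 in A8ko and 39.2 and 40.7 in C9ko, a gap of -1.300. Its reads are hard to divide from those of KRT6C and of KRT6A, which was at 246 TPM in A2ko beside 257 in A8ko and 506 and 543 in C9ko.

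Of the basal and simple epithelial keratins 7 of 8 were kept, 2 were higher by at least 1 (KRT15 and KRT19) and 3 lower (KRT7, KRT14 and KRT18). KRT14, the main basal type I keratin, was at 313 TPM in A2ko beside 867 in A8ko and 1283 and 1247 in C9ko, against 3877 ± 375 TPM in Control (SD, n = 3), a gap of -1.47. All edited libraries were below Control and A2ko was the lowest; KRT14 has pseudogenes that may take some of its reads. KRT15, another basal type I keratin, was at 1497 TPM in A2ko beside 266 in A8ko and 412 and 419 in C9ko, against 1871 ± 62.2 TPM in Control (SD, n = 3), a gap of 1.83. KRT5, the partner of both, was at 3082 TPM in A2ko beside 4237 in A8ko and 5428 and 5232 in C9ko, below the range by -0.46. Of the simple-epithelium keratins, KRT7 was lower in A2ko at 4.35 TPM in A2ko beside 14.8 in A8ko and 35.01 and 30.2 in C9ko. KRT18 was also lower, at 224 TPM in A2ko beside 477 in A8ko and 569.6 and 553 in C9ko. KRT19 was higher at 5.59 TPM in A2ko beside 1.15 in A8ko and 1.96 and 2.103 in C9ko.

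**Figure D4:**
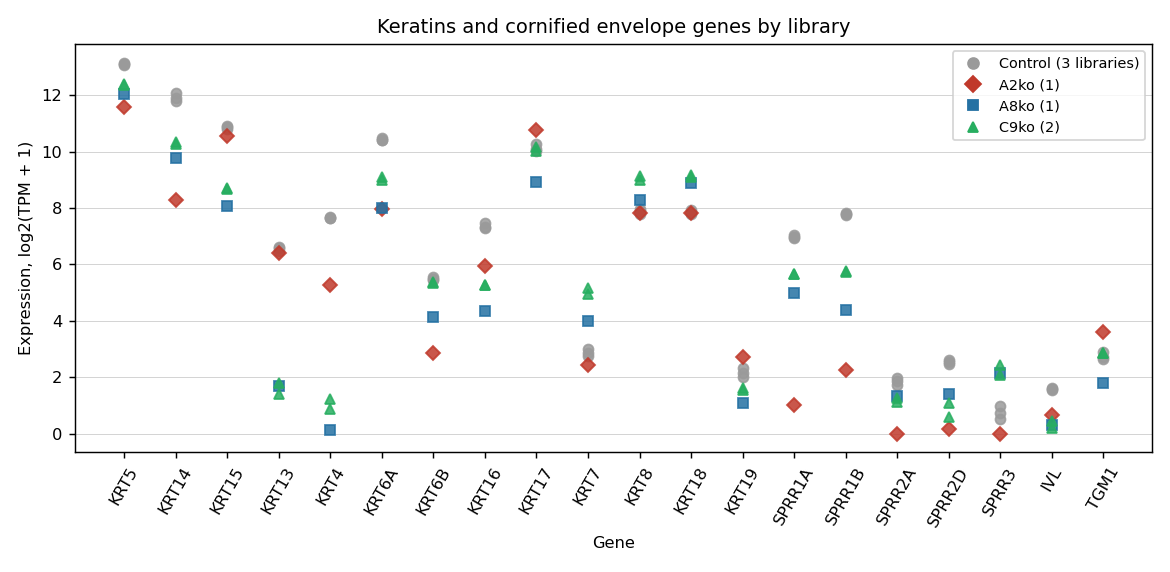
Keratin and cornified envelope genes (x axis) on the log2(TPM + 1) scale (y axis), 1 point per distinct library: red diamonds A2ko, blue squares A8ko, green triangles C9ko, grey circles Control. A2ko lies with Control for KRT13 and KRT15, below all other libraries for KRT14, KRT6B, SPRR1A and SPRR1B, and between the groups for KRT4.

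In the cornified envelope list, proteins that are cross-linked under the membrane of dying keratinocytes, 21 of 36 were kept, 12 below and 8 above the range. SPRR1A, SPRR1B, SPRR3, CALML5 and SPRR2A were lower by at least 1 and 0 members were higher by that much. SPRR1A, a small proline-rich precursor of the envelope (ENSG00000169474, chromosome 1, 152985231 to 152985500, plus strand), was at 1.003 TPM in A2ko beside 31.1 in A8ko and 49.5 and 49.7 in C9ko, against 125 ± 4.44 TPM in Control (SD, n = 3), a gap of -4.003. SPRR1B was at 3.83 TPM in A2ko beside 19.8 in A8ko and 53.9 and 51.7 in C9ko, against 221 ± 6.81 TPM in Control (SD, n = 3), a gap of -2.11. For SPRR1A and SPRR1B every edited library was below Control and A2ko was by far the lowest. SPRR3 was at 0 TPM in A2ko beside 3.43 in A8ko and 4.47 and 3.24 in C9ko, against 0.685 ± 0.276 TPM in Control (SD, n = 3), so here the other edited lines were above Control. SPRR genes are similar in sequence, so the division of reads between them is uncertain. The SPRR1A model of the annotation, 152985231 to 152985500, lies downstream of the RefSeq start used for its promoter.

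TGM1, the transglutaminase that cross-links the envelope, was above the range at 11.2 TPM in A2ko beside 2.46 in A8ko and 6.34 and 6.34 in C9ko, against 5.81 ± 0.601 TPM in Control (SD, n = 3). IVL, involucrin, was under 1 TPM in each edited library. The median difference of the envelope list was -0.40. The desmosome list stayed near the background, with 10 of 13 kept, 4 above, 3 below and 0 by as much as 1. PKP1, a desmosomal plaque protein, was the farthest, at 73.6 TPM in A2ko beside 38.7 in A8ko and 40.9 and 40.5 in C9ko, against 171 ± 12.1 TPM in Control (SD, n = 3).

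Among the squamous lineage and Notch transcription factors 38 of 38 were kept, 14 above and 18 below the range. The share above, 36.8%, was near the 36.9% of all kept genes, and the share below was 47.4% beside 34.6%. HES1, ELF3, NOTCH3 and PAX9 were higher by at least 1 and EHF was lower. HES1, a Notch target, was at 128 TPM in A2ko beside 40.4 in A8ko and 38.2 and 39.97 in C9ko, against 58.4 ± 2.76 TPM in Control (SD, n = 3), a gap of 1.64. NOTCH3, a Notch receptor, was at 68.8 TPM in A2ko beside 17.9 in A8ko and 28.7 and 30.3 in C9ko, against 60.1 ± 4.31 TPM in Control (SD, n = 3). A2ko was well above Control for HES1 and close to it for NOTCH3. ELF3 and EHF, ETS factors of epithelia, differed in opposite directions. ELF3 was at 210.2 TPM in A2ko beside 54.9 in A8ko and 90.3 and 92.97 in C9ko. EHF was at 120.2 TPM in A2ko beside 257 in A8ko and 251 and 276 in C9ko. PAX9, a factor of oral epithelium, was at 11.7 TPM in A2ko beside 4.79 in A8ko and 4.16 and 3.22 in C9ko. TP63, the basal lineage factor, was below the range by -0.45, at 194 TPM in A2ko beside 265 in A8ko and 308 and 313 in C9ko. SOX2, at 0.15 to 0.483 TPM in the edited libraries, did not separate them.

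Genes of attachment to the basement membrane were mostly lower in A2ko than in the other edited libraries. Of 20 hemidesmosome and basement membrane genes 20 were kept, 13 below and 3 above the range, with a median difference of -0.47. The list's median difference from Control was 0.22 in A2ko beside 0.40 in the A8ko library and 0.67 and 0.63 in C9ko. COL17A1 and COL7A1 were among those lower by at least 1. COL17A1, the transmembrane collagen of hemidesmosomes, was at 36.2 TPM in A2ko beside 147 in A8ko and 150.4 and 152 in C9ko, against 118 ± 4.71 TPM in Control (SD, n = 3), a gap of -1.997. COL7A1, which forms anchoring fibrils, was at 20.4 TPM in A2ko beside 45.5 in A8ko and 55.1 and 53.2 in C9ko. ITGA5 and ITGA2, integrin chains for fibronectin and collagen, were above the range. ITGA5 was at 41.4 TPM in A2ko beside 27.6 in A8ko and 30.3 and 28.6 in C9ko. ITGA2 was at 22.9 TPM in A2ko beside 18.7 in A8ko and 17.6 and 18.2 in C9ko.

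Of 37 genes of epithelial to mesenchymal transition and mesenchymal matrix 29 were kept, 18 below and 4 above the range, with 7 lower by at least 1 and 0 higher. The list's median difference from Control was 0.32 in A2ko beside 0.49 in the A8ko library and 0.74 and 0.77 in C9ko. INHBA, the activin A subunit (ENSG00000122641, chromosome 7, 41667168 to 41705834, minus strand), was at 7.93 TPM in A2ko beside 60.4 in A8ko and 63.5 and 67.3 in C9ko, against 13.2 ± 0.0956 TPM in Control (SD, n = 3), a gap of -2.78. FN1, fibronectin, was at 4.08 TPM in A2ko beside 24.7 in A8ko and 29.98 and 36.4 in C9ko, against 8.44 ± 0.586 TPM in Control (SD, n = 3), a gap of -2.34. In both, A2ko was somewhat below Control and the other 3 were several times above it. THBS1, thrombospondin 1, was at 138 TPM in A2ko beside 426 in A8ko and 667 and 716 in C9ko. AXL, a receptor kinase, was at 20.7 TPM in A2ko beside 87.9 in A8ko and 48.4 and 51.4 in C9ko. CCN1, CCN2 and COL4A2 were the others. The regulators themselves were weakly expressed or close together. SNAI2 was at 65.04 TPM in A2ko beside 96.7 in A8ko and 82.9 and 85.3 in C9ko. SNAI1 was above the range at 4.11 TPM in A2ko beside 1.34 in A8ko and 1.79 and 2.199 in C9ko. VIM, an intermediate filament gene, was at 0.118 to 3.12 TPM.

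The YAP and TAZ target list, which shares CCN1, CCN2, AXL and TGFB2 with the list before, had 27 of 27 kept, 19 below and 5 above the range. By at least 1, 7 were lower and 0 higher, with a median difference of -0.48. CCN2, a matricellular protein, was at 40.4 TPM in A2ko beside 172 in A8ko and 139 and 142 in C9ko, against 156 ± 7.06 TPM in Control (SD, n = 3), a gap of -1.75. A2ko alone was far below Control for CCN2. NUAK2, a kinase, was at 4.72 TPM in A2ko beside 20.2 in A8ko and 21.5 and 21.4 in C9ko. NT5E, the ecto-nucleotidase CD73, was at 11.3 TPM in A2ko beside 54.3 in A8ko and 39.6 and 42.5 in C9ko. Their gaps were -1.89 and -1.73. The effectors YAP1 and WWTR1 were below the range by -0.26 and -0.14 only.

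Interferon-stimulated genes separated A8ko from the rest more than they separated A2ko. Of 44 genes 44 were kept, 18 above and 4 below the range, with a median difference of 0.34 that turned to -0.157, relative to all genes, without A8ko. The shares were 40.9% above and 9.09% below, beside 36.9% and 34.6% of all kept genes. IRF9, a subunit of the interferon-activated complex ISGF3, was higher by 1.71, at 47.4 TPM in A2ko beside 4.003 in A8ko and 13.4 and 13.8 in C9ko, against 10.1 ± 3.61 TPM in Control (SD, n = 3). IFI44L was higher by 1.08, at 20.8 TPM in A2ko beside 1.72 in A8ko and 9.27 and 8.45 in C9ko. For both, A2ko was the highest and A8ko the lowest of the 7 libraries, and IRF9 overlaps another annotated gene, ENSG00000259529, on the same strand. The T-cell chemokine genes CXCL11 and CXCL10 were lower. CXCL11 was at 2.78 TPM in A2ko beside 43.4 in A8ko and 51.6 and 55.7 in C9ko, against 7.16 ± 0.981 TPM in Control (SD, n = 3), a gap of -3.55. CXCL10 was at 8.17 TPM in A2ko beside 28.6 in A8ko and 33.4 and 37.00 in C9ko, against 12.5 ± 1.15 TPM in Control (SD, n = 3). A2ko was below Control for CXCL11 and CXCL10 while the other 3 libraries were above it. Classic members such as ISG15 and RSAD2 placed A2ko between A8ko and C9ko. ISG15 was at 264 TPM in A2ko beside 130.4 in A8ko and 268 and 277 in C9ko. RSAD2 was at 10.99 TPM in A2ko beside 2.97 in A8ko and 29.4 and 32.4 in C9ko.

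Of 25 antigen presentation genes 25 were kept, 15 below and 1 above the range, and 5 class II genes were lower by at least 1: HLA-DPA1, HLA-DRA, CIITA, HLA-DRB1 and HLA-DQA1. The list's median difference from Control was 0.16 in A2ko beside 0.37 in the A8ko library and 0.57 and 0.65 in C9ko. CIITA, the transactivator of class II genes, was at 3.28 TPM in A2ko beside 9.58 in A8ko and 9.79 and 10.4 in C9ko, against 6.84 ± 0.406 TPM in Control (SD, n = 3). HLA-DRA was at 23.1 TPM in A2ko beside 59.7 in A8ko and 79.6 and 92.5 in C9ko, against 30.98 ± 2.42 TPM in Control (SD, n = 3). A2ko was below Control for CIITA and HLA-DRA and the other edited lines were above it. HLA-DPA1 was at 7.68 TPM in A2ko beside 27.99 in A8ko and 29.3 and 37.5 in C9ko. HLA-DMA, also of class II, was inside the range at 39.4 TPM in A2ko beside 39.9 in A8ko and 37.2 and 38.3 in C9ko. Reads are assigned to each class II gene with some uncertainty, because these genes resemble one another and vary between people.

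Of the glycolysis and hypoxia genes 33 of 34 were kept, 27 below and 3 above the range, with a median difference of -0.42. CA9, a carbonic anhydrase induced by hypoxia, was at 9.99 TPM in A2ko beside 41.8 in A8ko and 58.2 and 60.6 in C9ko, against 18.2 ± 1.34 TPM in Control (SD, n = 3), a gap of -1.96. VEGFA, the vascular growth factor, was at 38.4 TPM in A2ko beside 147 in A8ko and 79.6 and 85.6 in C9ko, against 47.5 ± 1.69 TPM in Control (SD, n = 3). PFKFB4, which controls glycolytic flux, was at 4.75 TPM in A2ko beside 14.04 in A8ko and 16.9 and 18.8 in C9ko. CA12 was the other lower member. A2ko was below Control for CA9 and PFKFB4 and the other 3 libraries were above it. ALDOC and ENO2, the neuronal forms of aldolase and enolase, went the other way. ALDOC was at 275 TPM in A2ko beside 54.3 in A8ko and 54.98 and 60.4 in C9ko. ENO2 was at 34.2 TPM in A2ko beside 16.05 in A8ko and 12.8 and 12.9 in C9ko. Their abundant counterparts ALDOA and ENO1 were below the range by -0.11 and -0.27.

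Of 16 heat shock and chaperone genes 16 were kept, 13 below and 2 above the range, with a median difference of -0.68. HSPB8, a small heat shock protein, had a gap of -2.76, at 0.7900 TPM in A2ko beside 11.1 in A8ko and 15.2 and 16.7 in C9ko, against 4.73 ± 0.587 TPM in Control (SD, n = 3). HSP90AA1, an abundant chaperone, was at 519.5 TPM in A2ko beside 1275 in A8ko and 923 and 918 in C9ko. In the unfolded protein response and amino acid stress list 30 of 30 were kept, 14 below and 8 above, and STC2 and TRIB3 were lower by at least 1. The shares were 46.7% below and 26.7% above, beside 34.6% and 36.9% of all kept genes. STC2, a stanniocalcin, was at 5.66 TPM in A2ko beside 24.4 in A8ko and 16.8 and 16.3 in C9ko. TRIB3, a pseudokinase, was at 16.8 TPM in A2ko beside 41.6 in A8ko and 45.03 and 50.5 in C9ko. ATF4, the central factor of amino acid stress, was below the range by -0.58. Of 18 S100 genes 17 were kept, 9 below (52.9%) and 4 above (23.5%). S100A12 and S100A8 were lower by at least 1, the latter at 143 TPM in A2ko beside 458 in A8ko and 1025 and 1051 in C9ko.

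The 13 mitochondrially encoded messengers were all kept, with 11 above the range, 0 below and 0 by as much as 1, a median difference of 0.34. MT-CO2, a subunit of cytochrome oxidase, was at 32277 TPM in A2ko beside 21111 in A8ko and 23036 and 19304 in C9ko, against 28436 ± 2765 TPM in Control (SD, n = 3). A2ko was closer to Control than the other edited lines were. With these genes removed and the libraries rescaled, 637 genes were higher and 260 lower, so the mitochondrial share moves the balance of the counts.

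Other lists gave shares near those of all kept genes or few members. Of cholesterol and fatty acid synthesis genes 33 of 33 were kept, 10 above and 11 below, with TM7SF2, a sterol reductase, higher by 1.47 at 132 TPM in A2ko beside 42.9 in A8ko and 44.7 and 46.9 in C9ko; it overlaps VPS51. Of NRF2 targets 28 of 30 were kept, 8 above and 9 below, AKR1C3 higher by 1.01 and TRIM16 lower at 50.8 TPM in A2ko beside 138 in A8ko and 116 and 135 in C9ko. Of metallothioneins and a zinc exporter 6 of 10 were kept, 5 above and 1 below, none by 1. Of tight junction genes 19 of 20 were kept, 8 above and 8 below, with CLDN8, a claudin, higher by 3.01 at 8.16 TPM in A2ko beside 0 in A8ko and 0.133 and 0.03900 in C9ko, against 3.35 ± 0.686 TPM in Control (SD, n = 3).

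Of surface mucins, CEACAMs and LY6 genes 13 of 20 were kept, 5 above and 5 below, and LY6D, CEACAM1 and MUC4 were higher by at least 1. LY6D, a squamous surface protein, was at 931 TPM in A2ko beside 167 in A8ko and 238 and 244 in C9ko, against 1748 ± 97.8 TPM in Control (SD, n = 3). All edited libraries were below Control and A2ko the least. Of kallikreins and serpins 27 of 31 were kept, 10 above and 6 below, with SERPINA3, SERPINB13 and KLK13 higher and KLK9 lower by at least 1. SERPINA3, a protease inhibitor, was at 27.4 TPM in A2ko beside 0.00177 in A8ko and 3.49 and 4.13 in C9ko, against 7.96 ± 0.956 TPM in Control (SD, n = 3). SERPINB13, a protease inhibitor expressed in keratinocytes, was at 88.3 TPM in A2ko beside 16.8 in A8ko and 35.6 and 35.8 in C9ko, against 98.05 ± 4.16 TPM in Control (SD, n = 3), near Control in A2ko.

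Genes that are not protein coding gave few large gaps with at least 5 TPM. Among the higher ones, MIR6510 lies inside KRT15 on the same strand and IGFL1P1 and IGFL2-AS1 overlap each other on opposite strands, so their values cannot be separated from those neighbours. MIR6510 was at 89.2 TPM in A2ko beside 3.83 in A8ko and 3.56 and 7.596 in C9ko, against 37.5 ± 5.95 TPM in Control (SD, n = 3). IGFL2-AS1 was at 117 TPM in A2ko beside 10.8 in A8ko and 10.8 and 12.9 in C9ko, against 54.01 ± 1.83 TPM in Control (SD, n = 3). Among the lower ones, SFTA1P was at 0.377 TPM in A2ko beside 10.1 in A8ko and 5.69 and 6.705 in C9ko. LINC02987 was at 0.0396 TPM in A2ko beside 12.1 in A8ko and 11.4 and 11.4 in C9ko. THBS1-AS1, which lies opposite THBS1, was at 1.87 TPM in A2ko beside 17.7 in A8ko and 14.9 and 12.3 in C9ko. BCL2L2-PABPN1, a readthrough of BCL2L2 and PABPN1 that counts as protein coding, was the 10th lower gene at 1.22 TPM in A2ko beside 14.2 in A8ko and 25.6 and 19.6 in C9ko. Its Control libraries were at 31.98, 0.382 and 7.51 TPM, a spread wider than the difference between the edited lines.

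Along the chromosomes, windows of 30 neighbouring kept genes were searched for 80% or more on the same side of A2ko. The search gave 1 stretch, on chromosome 3 from 55465715 to 67654614, with 35 genes, 27 of them below the range in A2ko, 2 above and 0 by as much as 1. Their median difference from Control was -0.01 in A2ko beside 0.20 in the A8ko library and 0.75 and 0.86 in C9ko, so the C9ko libraries were the ones apart from Control there. Over the whole of chromosome 3, 24.2% of 869 genes were above and 45.6% below, beside 36.9% and 34.6% over all. With a gap of at least 1, 21 of these 869 genes were higher and 14 lower. Those shares were close to the 2.85% and 1.59% of all kept genes. On chromosome 15, 45.01% of 511 genes were above and 17.03% below, with a median difference of 0.21. The median difference from Control there was 0.14 in A2ko beside -0.27 in the A8ko library and 0.04 and 0.11 in C9ko, so A8ko was the library apart.

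**Figure D5:**
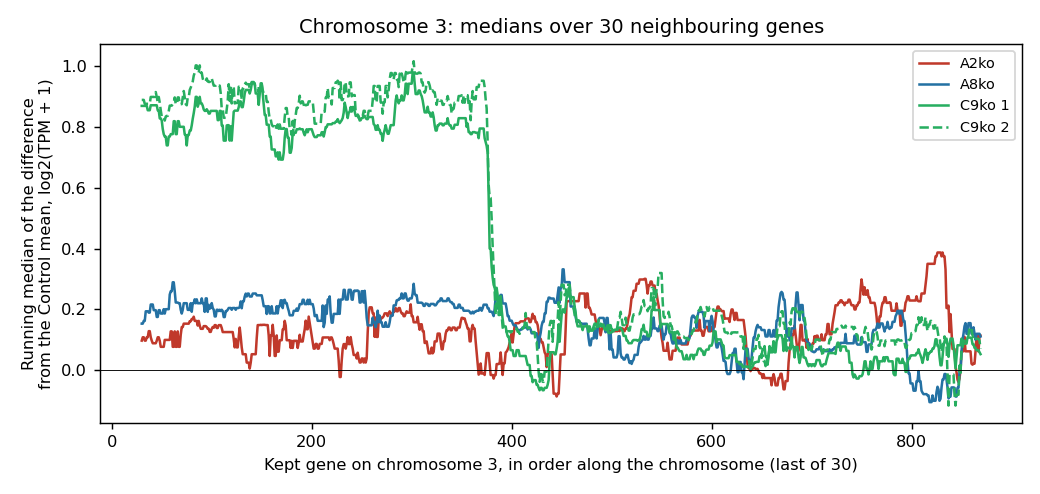
Running median over 30 neighbouring kept genes of the difference from the Control mean on the log2(TPM + 1) scale (y axis), in gene order along chromosome 3 (x axis), for each edited library. Both C9ko lines run high over the first part of the chromosome and then drop to the level of A2ko and A8ko.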

How the data were processed

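The deposited files hold 1 TPM value per Ensembl gene identifier, computed by the authors. Per the submitters' processing notes the genome build was hg38. The aligner, quantification tool, annotation and use of strand are not given in the sources used here. Header names in both A2ko files and in both A8ko files name the same library, their values were identical, and each pair was counted once. Only the A2ko library departed from the nominal TPM total by more than rounding, with an excess of 129.8.

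Values were analysed as log2(TPM + 1), which understates changes of weak genes, with pandas 2.3.3 and numpy 2.4.6 in Python 3.11.15. Genes at 1 TPM or more in at least 2 of the 7 distinct libraries were kept. A gene was counted when A2ko lay outside the range of the 3 A8ko and C9ko libraries, and by a gap of at least 1 log2 unit. No test was made, and the counting was tested on simulated data. Named genes were the 10 protein-coding and 3 other genes per direction with the largest gaps at 5 TPM or more, and up to 4 per direction in each of 33 lists. Other list members are given as values. Members and lists were chosen with earlier results of these data known. Symbols were found for 14374 kept genes, and positions for 15666 in GENCODE 29 on GRCh38. Promoter sequences came from RefSeq. Alternatives were the pseudocount, the filter, the gap, the scaling and each library left out. A few named genes and 1 list are not reported here.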

Additional observations from a re-analysis of the deposited data

Results flagged for a closer look

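The results here have A2ko on one side of Control and all 3 A8ko and C9ko libraries on the other, and the difference between the groups was not tested. All values share the same Control libraries. For gene lists the value is the median log2 difference from Control relative to that of all kept genes, outside the range of the Control libraries. Without that subtraction the A2ko median was 3.42e-05 for the AP-1 list and -0.0103 for the YAP and TAZ list, so nearly all of their distance below Control comes from it. The mitosis list was at -0.6072 in A2ko, against 0.2428 in A8ko and 0.1965 and 0.182 in C9ko. The DNA replication list was at -0.2646, against 0.2616, 0.1213 and 0.1032 in the same order. The glycolysis and hypoxia list was at -0.2326, against 0.2779, 0.1864 and 0.2547. The YAP and TAZ target list was at -0.1274, against 0.2167, 0.459 and 0.3695. The AP-1 and immediate early list was at -0.1171, against 0.4165, 0.215 and 0.1489. The epithelial line markers were at -0.2472, against 0.1002, 0.0918 and 0.1113, and without the subtraction A2ko was at -0.130. The summed TPM of these markers was below Control in every edited library.

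Among named genes, each library differed from Control by at least 1 log2 unit. MMP10 was at 3.79 in A2ko, against -1.636 in A8ko and -2.25 and -2.311 in C9ko. MMP13 was at 3.261 in A2ko and LOXL4 at 2.577, with every other edited library at -1.636 or lower for these 3 genes. PLXDC2 was at 2.146, PELI2 at 2.134, ATP6V1B1 at 1.165 and the tight junction gene CLDN8 at 1.088, all lower than Control in the other 3. Of genes that are not protein coding, MIR6510 was at 1.241, IGFL1P1 at 1.246 and IGFL2-AS1 at 1.099. In the other direction EDN1 was at -2.118 in A2ko, against 1.469, 1.379 and 1.493. BCL2L2-PABPN1 was at -1.714, with a wide spread in Control, HSPB8 at -1.674 and CXCL11 at -1.102, all higher than Control in the other 3.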

How the results depend on the processing

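No paired analysis was possible because A2ko and A8ko hold 1 distinct library each. Higher genes numbered 487 and lower genes 272. A gap of 0.5 gave 1584 and 1170, a gap of 2 gave 76 and 36, and a pseudocount of 0.1 gave 778 and 515. A mean of at least 5 TPM left 177 higher and 198 lower genes, which turns the balance round. Genes above the range without regard to the gap numbered 6306, 3530 with that mean and 15153 with no filter. Leaving out 1 of the other libraries can only raise the counts. It gave 562 to 624 higher and 298 to 553 lower genes, in both cases the most without A8ko. After scaling by the median of ratios 435 were higher and 297 lower, of which 435 and 271 were the same genes. Scaling each library to the same sum, added after the data were seen, left 487 and 272. The named genes were chosen by their gap. Leaving out libraries, averaging C9ko, the smaller pseudocount and the filters cannot shrink a gap, so those settings do not test these genes. Of the 101 named genes, scaling by the median of ratios left 4 with a gap under 1. Removing mitochondrially encoded genes left 6 under it. The other 91 kept a gap of at least 1, and 0 reversed. The median of 26 of 36 lists kept its sign. Relative to all genes, the interferon median turned to -0.157 without A8ko and was 0.330 or less without a C9ko library, and with no filter the matrix protease median turned to 0.0256 and the leukocyte marker median to 0.0150. The cause was not tested. Sequencing depth is unknown, so differences of weak genes cannot be set against counting error.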

Other observations

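Further groups, chosen after values were seen, belong to signalling of the TGF-beta family, the collagen matrix and the D and E cyclins, and they are given as values only. INHBB, the other activin beta subunit, was at 3.23 TPM in A2ko beside 9.01 in A8ko and 14.3 and 14.3 in C9ko, against 5.14 ± 0.344 TPM in Control (SD, n = 3), and FST, follistatin, which binds activins, was at 15.8 TPM in A2ko beside 149.5 in A8ko and 187 and 193 in C9ko, against 98.2 ± 2.37 TPM in Control (SD, n = 3), a gap of -3.17. As for INHBA, A2ko was the lowest of all 7 libraries. FSTL3, a relative of follistatin, was above the range at 32.7 TPM in A2ko beside 17.7 in A8ko and 17.2 and 16.8 in C9ko. Some BMP genes were higher. BMP7 was at 14.96 TPM in A2ko beside 1.93 in A8ko and 0.8299 and 0.664 in C9ko, against 11.5 ± 1.02 TPM in Control (SD, n = 3), a gap of 2.45, and BMP8B at 5.46 TPM in A2ko beside 1.22 in A8ko and 1.06 and 1.36 in C9ko, against 1.36 ± 0.167 TPM in Control (SD, n = 3). ID1, a target gene of BMP signalling that inhibits differentiation factors, was at 497 TPM in A2ko beside 106 in A8ko and 133 and 149.5 in C9ko, against 429 ± 47.8 TPM in Control (SD, n = 3), and ID3 at 123 TPM in A2ko beside 47.1 in A8ko and 68.7 and 74.2 in C9ko, against 126 ± 9.695 TPM in Control (SD, n = 3). A2ko was near Control for ID1 and ID3 and the other edited lines were below it. Of 36 genes of this group 27 were kept, 17 above the range and 5 below, with 3 higher (BMP7, BMP8B and ID1) and 3 lower (FST, INHBA and INHBB) by at least 1.

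Collagen VI, a microfibrillar collagen around cells, was higher in A2ko than in all other libraries. COL6A1 was at 45.3 TPM in A2ko beside 11.5 in A8ko and 9.58 and 8.38 in C9ko, against 7.26 ± 0.714 TPM in Control (SD, n = 3), and COL6A2 at 21.8 TPM in A2ko beside 3.11 in A8ko and 3.69 and 3.26 in C9ko, against 3.45 ± 0.422 TPM in Control (SD, n = 3), while COL6A3, which fibroblasts express, was under 0.1 TPM in every library. LOXL1 was at 3.78 TPM in A2ko beside 0.212 in A8ko and 0.628 and 0.659 in C9ko, against 1.07 ± 0.0976 TPM in Control (SD, n = 3), and thus shared the order of LOXL4, whereas LOX and LOXL2, other lysyl oxidases, were below the range at 4.33 TPM in A2ko beside 5.47 in A8ko and 9.55 and 10.02 in C9ko and 37.7 TPM in A2ko beside 50.6 in A8ko and 48.1 and 48.6 in C9ko. Of the 8 collagen VI and lysyl oxidase genes 7 were kept, 4 above and 3 below. CCND1, cyclin D1, was at 71.2 TPM in A2ko beside 144 in A8ko and 156 and 166 in C9ko, a gap of -1.01, and CCND3 at 48.2 TPM in A2ko beside 76.3 in A8ko and 71.8 and 81.7 in C9ko. CCNE1 was at 11.3 TPM in A2ko beside 16.1 in A8ko and 12.7 and 11.8 in C9ko, and its partner kinase CDK2 at 98.9 TPM in A2ko beside 122 in A8ko and 114 and 123 in C9ko, small gaps beside that of CCND2. Of the 10 cyclin and kinase genes 3 were above the range and 5 below.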
